A study of Mus musculus with 2 samples.

Results

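The tumour suppressor p53, encoded by Trp53, and 9 genes that control it or answer to it were followed in aortic perivascular cells (PVCs) of WT and Kai1 KO mice. The 10 genes were taken by name from 20211 gene symbols with a value in both libraries: Trp53, its regulators Mdm2 and Mdm4, and the targets Ccng1, Sesn1, Gdf15, Eda2r, Zmat3, Trp53inp1 and Plk2. Each stood on a single row of either table. All 10 passed a minimum of 1 for the RPKM averaged over WT and Kai1 KO, the filter under which 10068 genes were kept. RPKM counts reads per kilobase of transcript, scaled to the mapped reads of the library, so levels can be set side by side between genes.

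The study asked what the tetraspanin KAI1, encoded by Cd82, does in the mural cells that wrap blood vessels. It placed p53 between KAI1 and the cytokine gene Lif, from binding, reporter and protein assays in a pericyte cell line overexpressing Kai1. Both groups were PVCs of the aorta on the C57BL/6 background, grown in DMEM with fetal bovine serum, and they differed in genotype, wild type or Kai1 KO, with 1 library each. The study used adult mice of either sex, without tying an age or a sex to these libraries. The knockout allele, the number of mice behind each library and the number of passages are not given in the sources used here. With 1 library per genotype there is no replicate check, no p-value was computed, and every difference below is a difference between 2 libraries.

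p53 is a transcription factor that is made and degraded continuously in unstressed cells. MDM2 attaches ubiquitin to it and MDM4 blocks its activation domain, while kinases that sense DNA damage release it from both. Released p53 binds DNA as a tetramer, at a pair of 10-base elements, and switches on genes for growth arrest, cell death, repair and metabolism, Mdm2 among them, which closes a feedback loop. Much of this control acts on the protein, so the mRNA level of Trp53 is not a measure of p53 activity.

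Several of the 10 genes carry close matches to the p53 consensus element near their start, and these sequences are shown because they are the DNA by which p53 target genes are usually recognised. The search covered 2500 bases on either side of the annotated 5′ end of each gene in the mouse build NCBIM37 (mm9), for a pair of p53 consensus decamers with no spacer, at most 3 mismatches over 20 bases, and the C and G of each 4-base core intact. The element reads the same way on both strands and no other motif was searched. Of 18796 gene windows of this length, 0.0798% held a match with 0 mismatches, 0.809% one with at most 1, 4.98% one with at most 2 and 21.6% one with at most 3. The corresponding counts among the 10 genes were 1, 3, 5 and 8. These genes were chosen by name as p53, its regulators and its targets, so the counts describe them and test nothing. Each match is printed 5′ to 3′ on the strand of its gene, with the 4-base cores in capitals, taking the matches with the fewest mismatches in each gene.
Zmat3 (chr3:32263253-32263272, minus strand, 0 mismatches): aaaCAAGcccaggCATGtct
Ccng1 (chr11:40568438-40568457, minus strand, 1 mismatch): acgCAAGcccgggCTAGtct
Ccng1 (chr11:40568964-40568983, minus strand, 1 mismatch): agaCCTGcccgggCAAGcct
Gdf15 (chr8:73155865-73155884, minus strand, 1 mismatch): tgaCTTGcctgaaCTTGcct
Eda2r (chrX:94571873-94571892, minus strand, 2 mismatches): gggCAAGtccgggCCTGtgt
Plk2 (chr13:111183090-111183109, plus strand, 2 mismatches): caaCATGcccgggCTTGcat
Plk2 (chr13:111184602-111184621, plus strand, 2 mismatches): gatCTTGcttagaCTTGttg
Mdm2 (chr10:117147161-117147180, minus strand, 3 mismatches): ggtCAAGttgggaCACGtcc
Mdm4 (chr1:134924097-134924116, minus strand, 3 mismatches): aggCTTGcaccacCATGccc
Trp53 (chr11:69393786-69393805, plus strand, 3 mismatches): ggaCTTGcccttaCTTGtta

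The match in Zmat3 lay 1337 bases inside the gene, in an intron of its longest coding transcript, and that in Eda2r lay 672 bases inside, also in an intron. In Ccng1 the matches lay 365 bases inside, in an intron, and 161 bases upstream. The Gdf15 match lay 480 bases inside, within a non-coding part of an exon of Gdf15-001. In Mdm2 the match was 643 bases from the 5′ end, in an intron of the longest coding transcript and in an exon of 1 of the 9 annotated transcripts. Those of Plk2 were 640 and 2152 bases upstream, that of Mdm4 2164 bases upstream and that of Trp53 65 bases upstream. For Sesn1 and Trp53inp1 these letters were not in the window, which says nothing of sites farther away. A match is a string of letters and not a measured binding site.

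**Figure D1:**
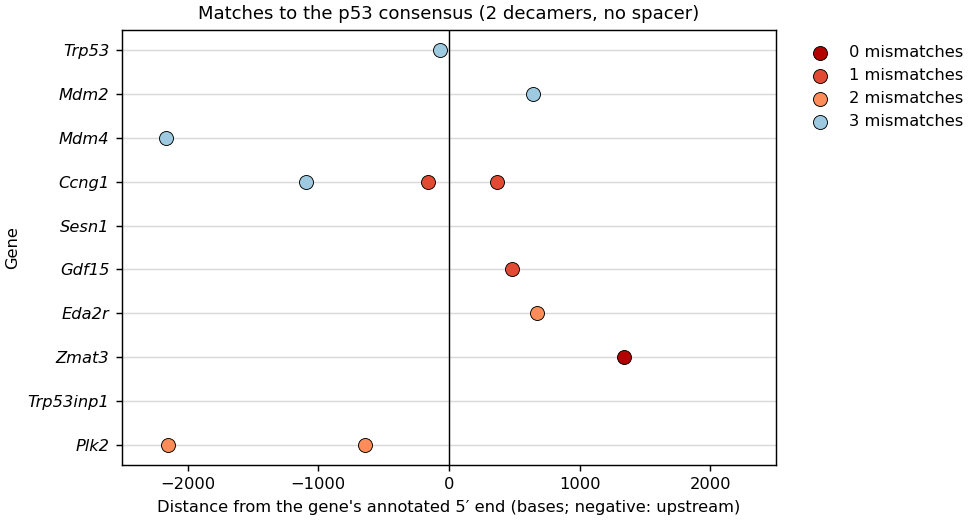
Position of each match to the p53 consensus element (points, coloured by the number of mismatches) against the distance in bases from the annotated 5′ end of each of the 10 genes. Zmat3 has the match with 0 mismatches, at 1337 bases inside the gene, and the rows of Sesn1 and Trp53inp1 hold no point.

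Before the levels of these genes, the libraries themselves were compared. Steps between low RPKM values put the depth near 29500000 reads for WT and 26700000 for Kai1 KO. The RPKM of all symbols summed to 884463 in WT and 1238193 in Kai1 KO. The targeted gene Cd82 had an RPKM of 12.8 in WT and 2.62 in Kai1 KO, and which part of the transcript the remaining reads cover is not given. Lif had 2.95 and 1.05, a log2 ratio of -1.40. All 4 Y-linked genes examined had an RPKM above 0 in WT, summing to 11.1, and were listed at 0 in Kai1 KO, so that sex and genotype cannot be told apart. The labelled cell type was checked with 11 mural markers, summing to 4646 in WT and 2978 in Kai1 KO, with the smooth muscle actin gene Acta2 at 3823 and 2580 and the pericyte gene Rgs5 at 0.0630 and 0.233. Of the 7 mural markers kept, 4 were more than 2-fold lower in Kai1 KO, beside 7.81% of all genes kept. Of the 7 fibroblast markers kept, 4 were also more than 2-fold lower. In bulk RNA, fewer cells of a type and less RNA per cell cannot be told apart. Of 10 endothelial markers, 3 were at 0 in WT and 9 in Kai1 KO, and their sums were 2.22 and 1.01. The 10 macrophage markers summed to 17.6 and 4.38, with Adgre1 and Aif1 at 0 in both libraries. The 2 of them kept were both more than 2-fold lower in Kai1 KO. Csf1r had an RPKM of 11.7 in WT and 2.66 in Kai1 KO, and Lyz2 had 3.44 and 1.095. The 8 fibroblast markers summed to 2090 and 1301 and the 8 keratinocyte markers to 1.65 and 19.5, nearly all of the latter from Ppl, with Krt5 and Krt1 at 0 in both. Of 12 proliferation markers, 9 were more than 2-fold higher in Kai1 KO, beside 7.98% of all genes kept. The 12 markers summed to 186 in WT and 465 in Kai1 KO. Mki67, a marker of cycling cells, had an RPKM of 5.43 in WT and 19.1 in Kai1 KO. The part of these marker differences in the values below was not tested.

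The 10 genes spanned high and low levels in the WT library. Trp53 was the highest, followed by Ccng1, Mdm2, Gdf15 and Plk2, all with an RPKM above those of at least 88.4% of the gene symbols, Zmat3 followed at 7.90, and Eda2r, Mdm4, Sesn1 and Trp53inp1 lay between 1.13 and 1.92. Ccng1 and Mdm2 did not differ beyond their 95% counting intervals (exact Poisson), nor did Eda2r and Mdm4, or Mdm4 and Sesn1. The other neighbours in the WT order had intervals that did not overlap. In the Kai1 KO library the order became Trp53, Mdm2, Ccng1, Plk2, Gdf15, Zmat3, Sesn1, Mdm4, Trp53inp1 and Eda2r, and only the last 2 had overlapping intervals. The largest moves in this order were those of Eda2r, from place 7 to 10, and of Sesn1, from place 9 to 7. These intervals come from estimated reads and cover counting error only.

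**Figure D2:**
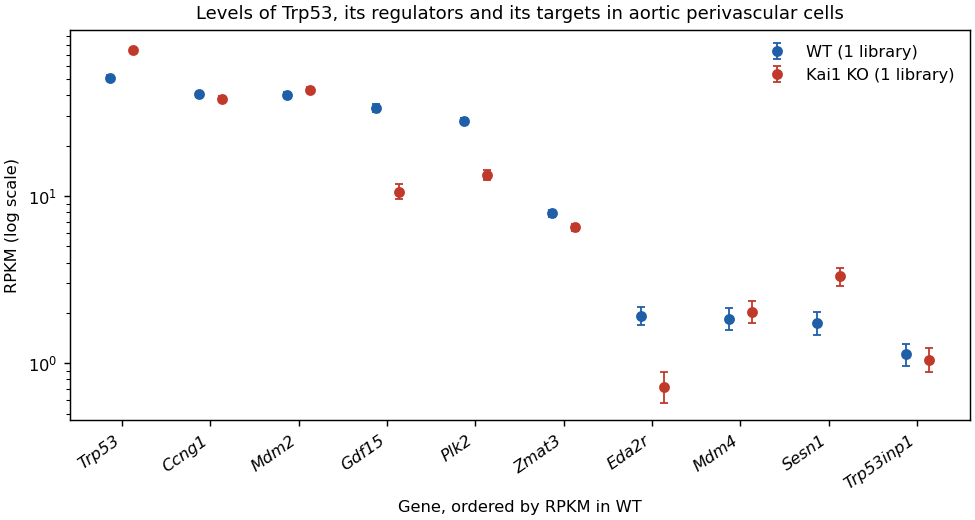
RPKM (log axis) of each of the 10 genes in the WT library and the Kai1 KO library, ordered by the WT level. Points are single libraries and bars are 95% exact Poisson intervals from the estimated reads. The intervals of the libraries do not overlap for Gdf15, Plk2, Eda2r and Zmat3, lower in Kai1 KO, nor for Sesn1, Trp53 and, narrowly, Mdm2, higher in Kai1 KO.

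Trp53 itself had a higher RPKM in the knockout library, by an amount that depends on the scaling. Its RPKM was 50.8 in WT and 74.1 in Kai1 KO, which is 146% of WT, from about 2498 and 3296 reads. The log2 ratio of Kai1 KO to WT, computed throughout after adding 0.1 to each RPKM, was 0.54, with a 95% counting interval of 0.47 to 0.62 (exact binomial, for the ratio without the added 0.1). This is less than a 2-fold difference, and 22.6% of the genes kept had a higher ratio. Scaled to Gapdh, the ratio of Trp53 was 0.04, and with the median of all genes set to 0 it was 0.46. The summed RPKM of all symbols was also higher in Kai1 KO, at 1238193 beside 884463 in WT. The counting interval does not cover this uncertainty of scaling. The gene lies on chromosome 11 from 69393861 to 69405375 on the plus strand. A stretch of 1177 bases of its longest coding transcript had a copy with 95.1% identity on chromosome 17, and reads shared with that copy would be counted for one or the other. The next gene, Wrap53, which encodes a telomerase and Cajal body protein, starts 104 bases away on the opposite strand, and its RPKM was 5.14 in WT and 10.5 in Kai1 KO, a log2 ratio of 1.01. The counting is not stated to use strand, and the annotated genes do not overlap. Of the other p53 family members, Trp73 was listed at 0 in both libraries, and Trp63 had an RPKM of 0.0892, or about 14 reads, in WT and was listed at 0 in Kai1 KO.

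Both negative regulators of p53 were close to even between the libraries. Mdm2, the ubiquitin ligase, had an RPKM of 40.2 in WT and 43.1 in Kai1 KO. Its log2 ratio of 0.10, with an interval of 0.03 to 0.17, was near 0.08, the median of all genes kept. Mdm4, its partner, which has little ligase activity of its own, had an RPKM of 1.85 in WT and 2.02 in Kai1 KO, from 179 and 178 reads. The interval of its ratio, from -0.17 to 0.44, contained 0, and both ratios changed sign when the libraries were scaled to Gapdh, to -0.40 for Mdm2 and -0.35 for Mdm4. Mdm2 was 21.8 times as abundant as Mdm4 per length in WT and 21.3 times in Kai1 KO. Trp53 exceeded Mdm2 by a factor of 1.26 in WT and 1.72 in Kai1 KO. Over 3317 bases of its transcript, Mdm4 had a copy with 93.3% identity on the X chromosome, so that its low values are uncertain. For Mdm2, which lies on chromosome 10 from 117125944 to 117147814, the same search gave 0 further matches.

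Of the 10 genes, 3 were more than 2-fold lower in the Kai1 KO library and 0 were more than 2-fold higher, against 7.81% lower, 7.98% higher and 15.8% in either direction among all 10068 genes kept. The 3 were Gdf15, Eda2r and Plk2, all of them targets. The median log2 ratio of the 10 genes was -0.10, beside 0.08 for all genes kept, with 6 genes below 0 and 4 above. The genes were chosen with such results known, so these shares describe them and test nothing.

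Gdf15 encodes a secreted stress cytokine of the TGF-β superfamily. Its RPKM was 33.5 in WT and 10.6 in Kai1 KO, or 31.7% of WT, from about 1328 and 381 reads. The log2 ratio was -1.65, with an interval of -1.83 to -1.49, and 3.4% of the genes kept had a lower ratio. This was the largest difference among the 10 genes. Gfral, which encodes its receptor and is known from the hindbrain, was listed at 0 in both libraries. Gdf15 has 2 exons and occupies positions 73153292 to 73156355 of chromosome 8, on the minus strand.

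Eda2r encodes a TNF receptor family member that binds the A2 form of ectodysplasin. Its RPKM was 1.92 in WT and 0.724 in Kai1 KO, from about 257 and 88 reads, a log2 ratio of -1.29 with an interval of -1.77 to -1.05. At this low level the added constant matters, and with 1 RPKM added the ratio was -0.76, less than a 2-fold difference. Eda2r is X-linked, at 94529179 to 94572555, and the 272 X-linked genes kept had a median log2 ratio of 0.08, with 8 of them, or 2.9%, below Eda2r. Its ligand gene Eda had an RPKM of 0.392 in WT and 0.127 in Kai1 KO, and the related receptor gene Edar was listed at 0 in both.

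Plk2 encodes a polo-like kinase of the early cell cycle and of stress responses. With an RPKM of 28.1 in WT and 13.3 in Kai1 KO, it stood at 47.5% of WT, and the log2 ratio was -1.07. The counting interval, from -1.19 to -0.96, contained the 2-fold line. Its relatives Plk1, Plk3 and Plk4 were read beside it. Plk1, which acts in mitosis, had an RPKM of 21.3 in WT and 57.1 in Kai1 KO, a log2 ratio of 1.42. Plk4, which starts the duplication of centrioles, had 1.32 and 2.49, a log2 ratio of 0.86, and Plk3, a kinase of stress responses, had 7.31 and 6.15, a log2 ratio of -0.25. The proliferation markers were higher in the same library as Plk1 and Plk4, and their part in these values was not tested.

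Sesn1 had the highest ratio of the 10 genes. It encodes a sestrin, a stress protein that restrains growth signalling through mTORC1. Its RPKM was 1.74 in WT and 3.31 in Kai1 KO, from about 152 and 262 reads, a log2 ratio of 0.89. The counting interval, from 0.64 to 1.23, contained the 2-fold line, and 10.4% of the genes kept had a ratio higher than that of Sesn1. Its paralogue Sesn2 stood the other way, at 6.59 in WT and 3.35 in Kai1 KO, a log2 ratio of -0.95 with an interval of -1.18 to -0.77. Sesn2 was thus 3.79 times as abundant as Sesn1 in WT and 1.01 times in Kai1 KO. The third member, Sesn3, had 0.742 and 1.22 RPKM.

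The remaining targets were close to even. Ccng1, which encodes cyclin G1, a partner of protein phosphatase 2A that acts on MDM2, had an RPKM of 40.5 in WT and 38.0 in Kai1 KO, a log2 ratio of -0.09 with an interval of -0.16 to -0.02. Zmat3, an RNA-binding zinc finger protein, had 7.90 and 6.49, a log2 ratio of -0.28 with an interval of -0.39 to -0.18. Trp53inp1, a nuclear stress protein that acts with p53 and in autophagy, had 1.13 and 1.04, a log2 ratio of -0.10 with an interval of -0.44 to 0.22. The intervals of Ccng1 and Zmat3 lay below 0 and that of Trp53inp1 contained it. Ccng2, a paralogue of Ccng1, had 1.53 and 1.65 RPKM, and Trp53inp2, a paralogue of Trp53inp1, had 6.81 and 5.81. Short stretches of Ccng1, 239 bases at most, and of Zmat3, 202 bases at most, had copies elsewhere in the genome, and Sesn1, Gdf15, Eda2r, Trp53inp1 and Plk2 had 0 such copies.

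**Figure D3:**
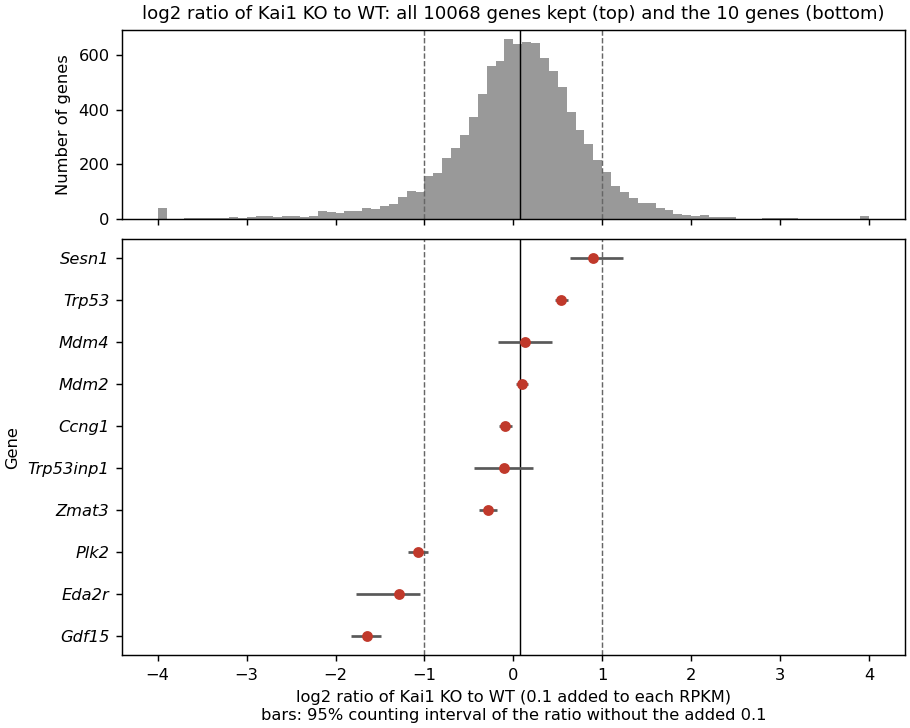
Top, number of genes by log2 ratio of Kai1 KO to WT among the 10068 genes kept, with values beyond 4 in either direction collected in the outermost bars. Bottom, the log2 ratio of each of the 10 genes (points) with its 95% counting interval (bars). Dashed lines mark a 2-fold difference and the solid line the median of all genes, 0.08. The points of Gdf15, Eda2r and Plk2 lie left of the lower dashed line and that of Sesn1, at 0.89, lies short of the upper one. The bars of Plk2 and Sesn1 cross these lines.

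Beside the matches to the consensus shown above, the ratios were as follows, as a description of 10 genes with no test. The 5 genes with a match of at most 2 mismatches had ratios below 0, at -1.65 for Gdf15, -1.29 for Eda2r, -1.07 for Plk2, -0.28 for Zmat3 and -0.09 for Ccng1. The 3 genes with 3 mismatches at best had ratios above 0, at 0.10 for Mdm2, 0.13 for Mdm4 and 0.54 for Trp53, of which those of Mdm2 and Mdm4 changed sign when scaled to Gapdh. The 2 genes with no match in the window lay on either side, Sesn1 at 0.89 and Trp53inp1 at -0.10. Within the first 5 genes the size of the ratio did not run with the number of mismatches, since Zmat3 with 0 and Ccng1 with 1 were closer to even than Eda2r and Plk2 with 2. Across all 528 genes kept with a match of at most 2 mismatches, the median log2 ratio was 0.08, the same as that of all genes kept. For the 91 genes kept with at most 1 mismatch it was 0.16.

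A wider set of 83 p53 pathway genes in 8 lists was then read in the same way. The 83 genes were compiled from general knowledge, with earlier results of these data known, so their shares test nothing. Of these, 80 had a row and 71 passed the filter. Past 2-fold were 6 on the lower side, or 8.45%, and 6 on the higher side, also 8.45%, close to the 7.81% and 7.98% of all genes kept, and the median log2 ratio was 0.10 beside 0.08. With the median of all genes set to 0, or with equal upper quartiles, 8 were lower and 4 higher. With 1 RPKM added, 2 were more than 2-fold higher, and scaled to Gapdh 15 were lower and 1 higher, where all genes kept had 18.5% lower and 2.54% higher. The targets and the regulators were then taken apart. Among 46 targets kept, 6 were more than 2-fold lower and 4 higher, with a median of -0.16. Among 25 regulators and cofactors kept, 0 were lower and 2 higher, with a median of 0.21.

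In the growth arrest list, 2 of 9 genes were lower by more than 2-fold and 0 were higher. Of all genes kept, 7.81% were lower and 7.98% higher. Rprm, which encodes the G2 arrest protein reprimo, had an RPKM of 5.42 in WT and 0.416 in Kai1 KO, a log2 ratio of -3.42 that rests on about 14 reads in Kai1 KO. Gadd45a, a stress sensor that acts on growth and repair, had 7.70 and 1.69, a log2 ratio of -2.13. Cdkn1a, which encodes the CDK inhibitor p21 and is named after its values were seen, had 650 in WT and 327 in Kai1 KO, a log2 ratio of -0.99 just short of 2-fold, and it was 12.8 times as abundant as Trp53 in WT and 4.41 times in Kai1 KO. The median of the list was -0.29.

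Apart from Rprm, the lowest and the highest ratios among these further targets were both in the cell death list. Perp, a membrane protein of desmosomes and apoptosis, had an RPKM of 4.23 in WT and 0.374 in Kai1 KO, a log2 ratio of -3.19. Pmaip1, which encodes the BH3-only protein NOXA, had 4.21 in WT and 21.4% of that in Kai1 KO, a log2 ratio of -2.11, and Bid, another BH3-only protein, had 13.9 and 4.58, a log2 ratio of -1.58. In the other direction Siva1, a pro-apoptotic adaptor, had 120 in WT and 358 in Kai1 KO, a log2 ratio of 1.58. The list as a whole had 3 of 11 genes lower and 1 higher, beside 7.81% and 7.98% of all genes kept. Its median was -0.14.

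In the repair and nucleotide supply list, 1 of 8 genes was higher by more than 2-fold and 0 were lower, with a median of 0.37. The gene was Pcna, the sliding clamp of DNA replication, at 38.2 in WT and 77.1 in Kai1 KO, a log2 ratio of 1.01 with an interval of 0.92 to 1.11. The rest of this list lay between -0.58 and 0.83. As with Plk1, the proliferation markers were higher in the same library, and their part in this list was not tested. In the metabolism and autophagy list, 1 of 9 genes was more than 2-fold higher, Ddit4, an inhibitor of mTORC1, at 7.44 in WT and 15.3 in Kai1 KO, a log2 ratio of 1.03, and 0 were lower. Sesn2 was the lowest of that list, and its median was -0.04. For both lists, 1 gene of 8 or 9 on the higher side is near the 7.98% of all genes kept.

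Among the surface and other targets, Thbs1 was more than 2-fold lower and Dgka more than 2-fold higher, of 9 genes kept. Thbs1, which encodes the matrix protein and angiogenesis inhibitor thrombospondin 1, had an RPKM of 818 in WT and 185 in Kai1 KO, a log2 ratio of -2.14. Dgka, a diacylglycerol kinase, had 1.18 and 3.05, a log2 ratio of 1.30. The median of this list was -0.34. On either side, 1 gene of 9 is near the 7.81% lower and 7.98% higher of all genes kept.

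**Figure D4:**
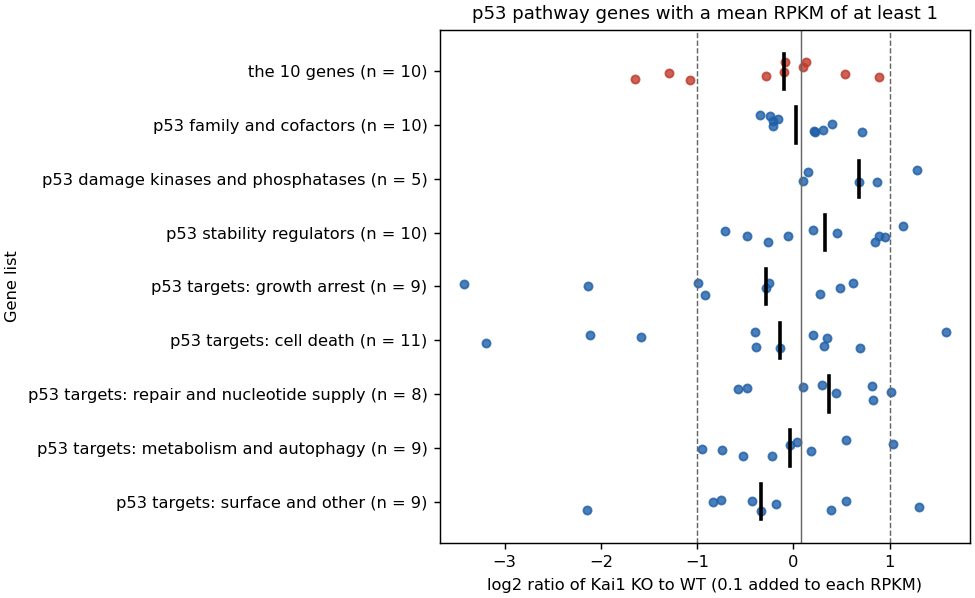
Log2 ratio of Kai1 KO to WT for the 10 genes and the 8 further p53 pathway lists, restricted to the genes kept. Each point is a gene, black bars are list medians, dashed lines mark a 2-fold difference and the grey line the median of all genes, 0.08. Medians run from -0.34 for the surface and other targets to 0.68 for the damage kinases and phosphatases, and points of most lists lie on both sides of the grey line.

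The regulators were mostly within 2-fold, beside 7.81% of all genes kept more than 2-fold lower and 7.98% higher. In the list of damage kinases and phosphatases, 1 of 5 genes kept was more than 2-fold higher, Chek1, the checkpoint kinase of stalled replication, at 0.961 in WT and 2.47 in Kai1 KO, a log2 ratio of 1.28. All 5 had a ratio above 0 and their median was 0.68. Below a mean RPKM of 1 were Atm and Atr, the kinases at the head of the damage response, and Prkdc. Their log2 ratios were 0.21, -0.02 and 1.03. As with Pcna, the proliferation markers were higher in the same library, and their part in this list was not tested. Ppm1d, a phosphatase that opposes p53, had 1.81 and 3.39, a log2 ratio of 0.87, and is named after its values were seen. Of the 10 stability regulators kept, Rpl5 was more than 2-fold higher, at 335 in WT and 739 in Kai1 KO, a log2 ratio of 1.14. RPL5 and RPL11 bind MDM2 in ribosomal stress, and the genes of such ribosomal proteins have many near-identical copies, so their values are uncertain. Cdkn2a, which encodes p16 and the MDM2 inhibitor p19ARF from one locus, is named after its values were seen and had 52.3 in WT and 32.0 in Kai1 KO, a log2 ratio of -0.71. A value per gene does not separate its 2 products. None of the 10 family members and cofactors kept was past 2-fold, and they ran from -0.35 for Trp53bp2, which encodes a p53-binding protein of the ASPP family, to 0.71 for the acetyltransferase gene Kat5.

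The scaling of the libraries moved the 10 ratios together. With Gapdh made equal, the median of all genes kept went from 0.08 to -0.42, and the ratios of the 10 genes ran from -2.14 for Gdf15 to 0.41 for Sesn1. Sesn1 and Trp53 stayed the highest of the 10 ratios and Gdf15, Eda2r and Plk2 the lowest. This scaling multiplies every Kai1 KO value by the same factor, so the order of the ratios could hardly change. A downward shift also could not bring Gdf15, Eda2r and Plk2 back within 2-fold. No further gene of the 10 became more than 2-fold lower, the next being Zmat3 at -0.77. Gapdh itself had an RPKM of 4238 in WT and 5997 in Kai1 KO.

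**Figure D5:**
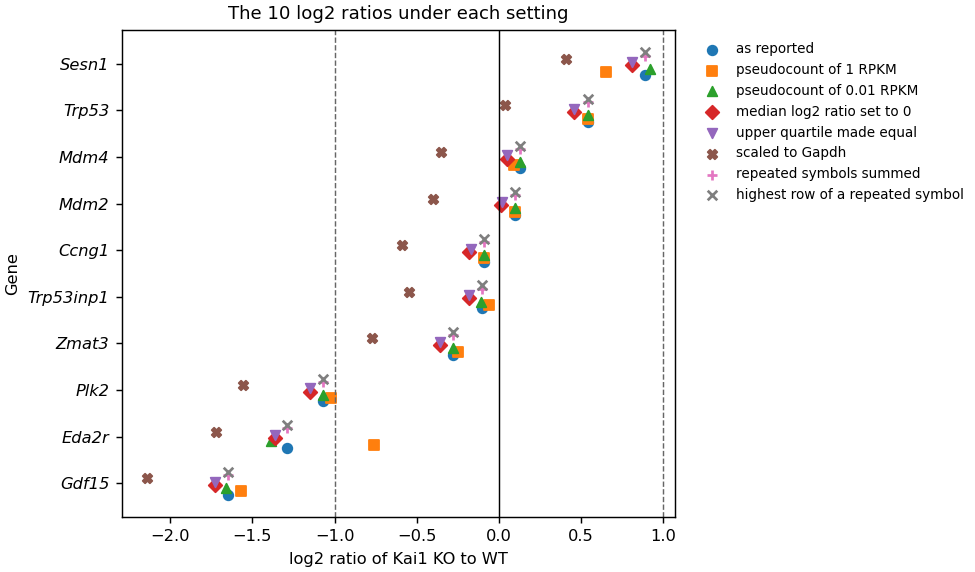
Log2 ratio of Kai1 KO to WT of the 10 genes as reported and under 7 other settings of the added constant, the scaling and the treatment of repeated symbols. Dashed lines mark a 2-fold difference. The treatment of repeated symbols could not move any point, since each gene stood on a single row. Scaling to Gapdh moves all 10 genes to the left, and Eda2r at -0.76 with 1 RPKM added is the only point of Gdf15, Eda2r and Plk2 inside the dashed lines.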

How the data were processed

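RNA-seq was read from 2 libraries, 1 of WT and 1 of Kai1 KO aortic PVCs. Alignment to mm9 by the authors used TopHat2 2.0.9 and Bowtie, and they deposited one RPKM value per RefSeq gene and library. Cufflinks is named in the submitters' processing notes and Cuffdiff in the paper. Depth, strand and library type are not given in the sources used here.

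From the deposited RPKM tables, 38 of 20462 rows were dropped for lack of a symbol, and the values of 153 symbols listed more than once were averaged. Log2 ratios used log2(RPKM + 0.1), which understates differences of low genes, and a gene was kept if its RPKM averaged at least 1. Estimated reads came from steps of low RPKM values of genes with a single GENCODE M1 transcript, less 200 bases. With the fitted steps, 80.0% of low WT values and 77.9% of low Kai1 KO values lay within 0.15 of a whole read. Copies of at least 200 bases and 90% identity were sought with BLAST+ 2.17.0. The read steps and the 2-fold calls were tested on simulated data. The motif search was tested for recovery of planted sites in sequence of A and T, which could not show false matches. Python 3.11.15, numpy 2.4.6, pandas 2.3.3 and scipy 1.17.1 were used.

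All 10 genes were named. Of the p53 pathway lists, genes kept and past 2-fold were named, otherwise the highest and lowest, with paralogues, ligands, receptors and neighbours. The marker lists were given as sums and counts, and not every marker past 2-fold was named. The members and lists were chosen with earlier results of these data known. There were 9 alternative settings.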

Additional observations from a re-analysis of the deposited data

How the results depend on the processing

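Of 70 recomputed log2 ratios of the 10 genes, 53 moved by less than the distance from the middle of their counting interval to its ends. The other 17 moved further. The 70 include the settings for repeated symbols, which could not move these ratios because each of the 10 genes stood on a single row. Those unchanged ratios are counted among the 53. Of the 70, 2 changed sign, Mdm2 and Mdm4 under scaling to Gapdh, and 1 crossed the 2-fold line, Eda2r with 1 RPKM added. The count of 3 genes more than 2-fold lower became 2 with 1 RPKM added, and 2 with a minimum mean RPKM of 5, where 6 of the 10 genes were kept. Scaled to Gapdh, the median of the 9 genes then kept, all but Trp53inp1, was -0.59, and of the other p53 pathway genes 15 were lower and 1 higher in place of 6 and 6. With 1 RPKM added 2 were higher, and with a minimum of 5, which keeps fewer genes, 2 were lower. The other settings left these counts within 1.5 times and the median between -0.19 and -0.07. No paired analysis was possible because WT and Kai1 KO were each sequenced as a single library. Depth limits Eda2r, Mdm4, Sesn1 and Trp53inp1 most, with 88 to 262 reads a library.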

Other observations

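The matches to the p53 consensus element were also read across all genes kept. Of 528 genes kept with a match of at most 2 mismatches within 2500 bases of the 5′ end, 55 or 10.4% were more than 2-fold lower in Kai1 KO and 36 or 6.82% higher, beside 7.81% and 7.98% of all genes kept. Their median log2 ratio was 0.08, the same as that of all genes. With at most 1 mismatch, 9 of 91 genes were lower and 9 higher. With 0 mismatches, 8 genes were kept, Zmat3 among them, and 0 were lower and 2 higher. These are counts over genes of 2 libraries, with no test.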
